A study of Homo sapiens with 4 samples.

Results

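The genes described here encode the actin filament and the motors and proteins that bind it: actins, alpha-actinins, myosin heavy and light chains, unconventional myosins, tropomyosins, tropomodulins, calponins, transgelins, caldesmon, vinculin, zyxin and palladin. Members were taken by gene symbol, from probe sets that name exactly 1 gene, by a rule that uses no measured value but was drawn up with earlier results of these data known. The table held 79 such genes of 17687 in all, each with 1 probe set. The RNA was from the human line KGN, derived from a granulosa cell tumour, so the results describe a single tumour line. The 4 groups, of 1 array each, were siYT+8Br-cAMP, siYT, siNC+8Br-cAMP and siNC. siYT stands for siRNAs against YAP and TAZ at 5 nM each, and siNC for control siRNA at 10 nM. All cells were transfected, and 48 h later received fresh medium with or without 0.5 mM 8Br-cAMP for 24 h. This compound is a form of cyclic AMP that enters cells.

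Actin monomers assemble into filaments that tropomyosins coat, tropomodulins cap at the slow-growing end and alpha-actinins cross-link. Myosin II motors, built from heavy chains and light chains, pull on these filaments to make stress fibres contract, and vinculin and zyxin tie stress fibres to adhesion sites. In many cell types YAP and TAZ respond to filament tension, actin monomers hold back the cofactors of the transcription factor SRF, and many genes of the filament are SRF targets. Cyclic AMP, the messenger of gonadotropins in granulosa cells, is known to dissolve stress fibres and round up cells.

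SRF binds a DNA element called the CArG box. The boxes near the starts of these genes are shown because the members that could be searched differ in them. RefSeq promoter windows on GRCh38.p14, running from 250 bases before to 50 bases after the gene's start, were matched for 66 of the 79 members. Members without a window, among them ACTB, TAGLN and MYL9, were not searched, so whether they have a box is unknown. A CArG box, searched on both strands, lay in 8 of the 66 windows, which is 12.1%, against 1.24% of the 14250 windows of all genes in the table and 1.29% of all 35116 RefSeq windows. The 9 boxes are printed 5′ to 3′ on the strand of the gene with 10 bases on each side, the box in capitals.
ACTA1 (chr1:229434172-229434201): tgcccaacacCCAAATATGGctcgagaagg
ACTC1 (chr15:34795639-34795668): gcgaaggggaCCAAATAAGGcaaggtggca
ACTG1 (chr17:81512874-81512903): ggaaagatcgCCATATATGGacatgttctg
ACTG2 (chr2:73892888-73892917): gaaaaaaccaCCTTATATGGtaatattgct
ACTG2 (chr2:73892925-73892954): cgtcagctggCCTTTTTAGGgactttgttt
CNN2 (chr19:1026509-1026538): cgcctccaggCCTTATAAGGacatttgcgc
MYL7 (chr7:44141374-44141403): ctgttcctctCCTTATTTGGaccttcaggt
MYO1E (chr15:59372883-59372912): gctgagttctCCATTTATGGacagattgcc
TPM4 (chr19:16067355-16067384): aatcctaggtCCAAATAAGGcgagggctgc
The boxes began between 31 bases (MYO1E) and 173 bases (TPM4) before the start. A match is a description of letters, not a site shown to be bound, and no factor was measured here. The TEAD motif GGAATG, which TEAD proteins use to recruit YAP and TAZ, was searched on both strands as well and lay in 13 of the 66 windows (19.7%), against 11.6% of the windows of all genes in the table and 14.03% of all RefSeq windows. No TEAD motif overlapped a printed CArG box. The AP-1 motif TGANTCA lay in 4 windows (6.06%, against 5.75% and 7.71%) and the cyclic AMP response element TGACGTCA in 2, those of MYL5 and MYL6 (3.03%, against 2.62% and 1.85%).

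Windows without any of these 4 motifs are shown for 3 members on which the results turn. TMOD1 and CNN1 had the largest siRNA difference in each direction among members called in both media with a window. ACTBL2 was added after its values were seen. No letters are in capitals because no motif was found.
TMOD1 (chr9:97500930-97501229, plus strand): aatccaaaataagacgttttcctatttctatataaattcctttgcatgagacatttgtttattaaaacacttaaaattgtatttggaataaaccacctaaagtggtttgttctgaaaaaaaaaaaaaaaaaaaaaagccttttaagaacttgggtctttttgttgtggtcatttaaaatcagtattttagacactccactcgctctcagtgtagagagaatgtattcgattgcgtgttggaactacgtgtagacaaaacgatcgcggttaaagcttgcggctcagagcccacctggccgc
CNN1 (chr19:11538601-11538900, plus strand): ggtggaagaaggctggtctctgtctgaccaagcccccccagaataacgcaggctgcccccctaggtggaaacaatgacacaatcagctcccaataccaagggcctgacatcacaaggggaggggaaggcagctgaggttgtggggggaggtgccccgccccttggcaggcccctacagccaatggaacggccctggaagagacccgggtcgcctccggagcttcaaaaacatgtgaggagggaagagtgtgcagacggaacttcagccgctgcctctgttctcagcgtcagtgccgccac
ACTBL2 (chr5:57482762-57483061, minus strand): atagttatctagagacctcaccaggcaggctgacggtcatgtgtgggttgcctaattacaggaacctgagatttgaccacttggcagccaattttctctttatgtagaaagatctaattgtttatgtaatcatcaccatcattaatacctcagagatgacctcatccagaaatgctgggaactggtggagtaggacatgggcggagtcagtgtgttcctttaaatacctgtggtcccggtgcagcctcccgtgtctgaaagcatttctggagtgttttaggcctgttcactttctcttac

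Levels are the deposited log2 values, and a difference is one such value minus another. A gene was called when its difference reached 1 either way, which is 2-fold, and at least 1 of the arrays compared was at 6.22 or more. That level filter is the median over all genes and arrays. For calls that use all 4 arrays, 1 of the 4 had to reach it. With 1 array per group there was no spread between replicates, no test and no p-value, so calls describe these arrays by size alone. Deposited values ran up to 19.4, beyond the 16 that the log2 of a 16-bit scanner value can reach. The labels name no further scaling step, so it is unknown whether a fold equals a ratio of probe signals. Levels of different genes come from different probes and are not compared with each other. The actin genes are close to identical in their coding sequence, and cross-hybridisation between them was not tested.

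The siRNA target YAP1 was at 6.80 in siYT and 9.48 in siNC without 8Br-cAMP, and at 6.29 in siYT and 9.46 in siNC with it. WWTR1, which encodes TAZ, was at 5.45 in siYT and 7.58 in siNC without 8Br-cAMP, and at 5.35 in siYT and 9.13 in siNC with 8Br-cAMP. Over 2197 positive control probe sets the median siRNA difference was -0.36 without and -0.35 with 8Br-cAMP, and the median 8Br-cAMP difference was 0.036 after siYT and 0.012 after siNC. Of 13 measured granulosa markers, FOXL2, AMHR2, INHA, NR5A2 and HSD17B1 had no value at the filter, while GATA4, INHBA, KITLG and KRT18 were above it on all 4. Of 16 striated muscle markers, 15 were under the filter on all arrays, and the other one was ACTN2, itself a member. The smooth muscle markers MYOCD, LMOD1, MYH11, DES and PLN were under the filter on all arrays, while ACTA2, SMTN and SYNM, and CNN1, TAGLN and SYNPO2 on some arrays, were above it.

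Muscle-specific members were mostly under the level filter. Of the 79 members, 42 (53.2%) had at least 1 value at or above the filter, against 55.1% of all genes, and 36 were above it on all 4 arrays. All 10 striated muscle heavy chains (MYH1, MYH2, MYH3, MYH4, MYH6, MYH7, MYH7B, MYH8, MYH13 and MYH15) stayed under it. So did the smooth muscle heavy chain MYH11, the non-muscle heavy chain MYH14, the muscle light chains MYL1, MYL2, MYL3, MYL4, MYL7 and MYL11, and MYL10. The muscle actins ACTC1 and ACTG2, ACTN3, TAGLN3, TMOD4 and 13 of 24 unconventional myosins completed the 37 members with all values under the filter, the highest of which was 6.21. These 37 could not be called in any comparison.

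**Figure D1:**
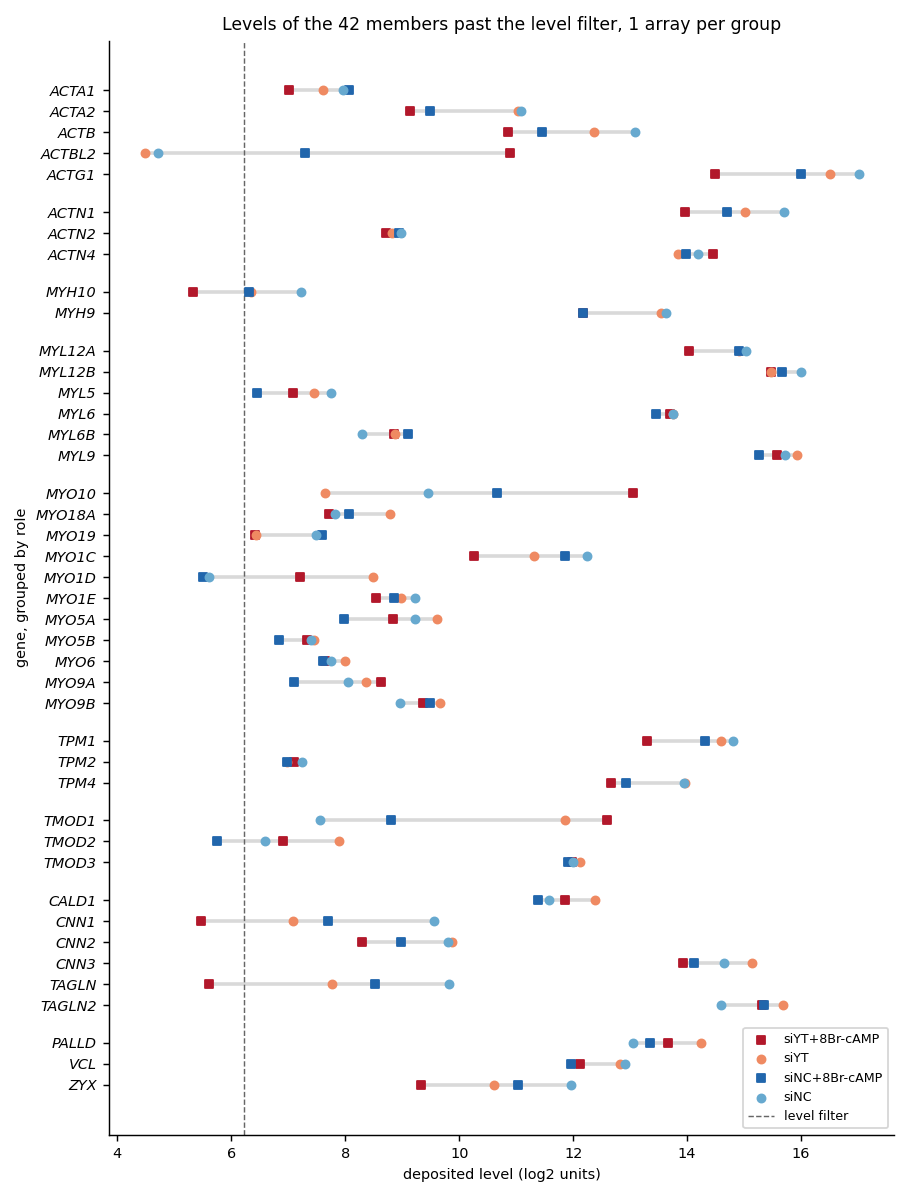
Deposited log2 level (horizontal axis) of the 42 members with at least 1 value at the level filter (dashed line at 6.22), grouped by role down the page, with 1 symbol for each of the 4 arrays. Squares are arrays with 8Br-cAMP and circles arrays without, red for siYT and blue for siNC. Squares lie left of circles for ACTA2, ACTB, MYH9 and TPM4, and red lies right of blue for TMOD1.

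The next question was which members differed with 8Br-cAMP after either siRNA, the comparisons in which most were called lower. Core parts of the stress fibre were lower with 8Br-cAMP after both siRNAs: the actins ACTB, ACTG1 and ACTA2, the cross-linker ACTN1, the motor MYH9, the tropomyosin TPM4, and CNN1 and TAGLN, which bind actin along the filament. These were 8 of the 79 members (10.1%), against 1.31% of all 17687 genes called lower after both siRNAs. The opposite call was made for 2 members (2.53%), ACTBL2 and MYO10, against 1.74% of all genes.

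After siYT, 8Br-cAMP gave 16 members called lower (20.3%, against 4.15% of all genes) and 2 called higher (2.53%, against 4.06%). After siNC it gave 10 called lower (12.7%, against 3.74%) and 3 called higher (3.80%, against 4.32%). Over all 79 members the median difference was -0.29 after siYT and -0.21 after siNC, against -0.02 and -0.03 over all genes. With log2 of the linear value plus 32 the member medians were -0.096 after siYT and -0.095 after siNC, against -0.009 and -0.014 over all genes. Of the 42 members past the filter, 28 were lower by any size after both siRNAs and 3 were higher after both. The same count was not taken over all genes past the filter, so it is not read against the background.

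**Figure D2:**
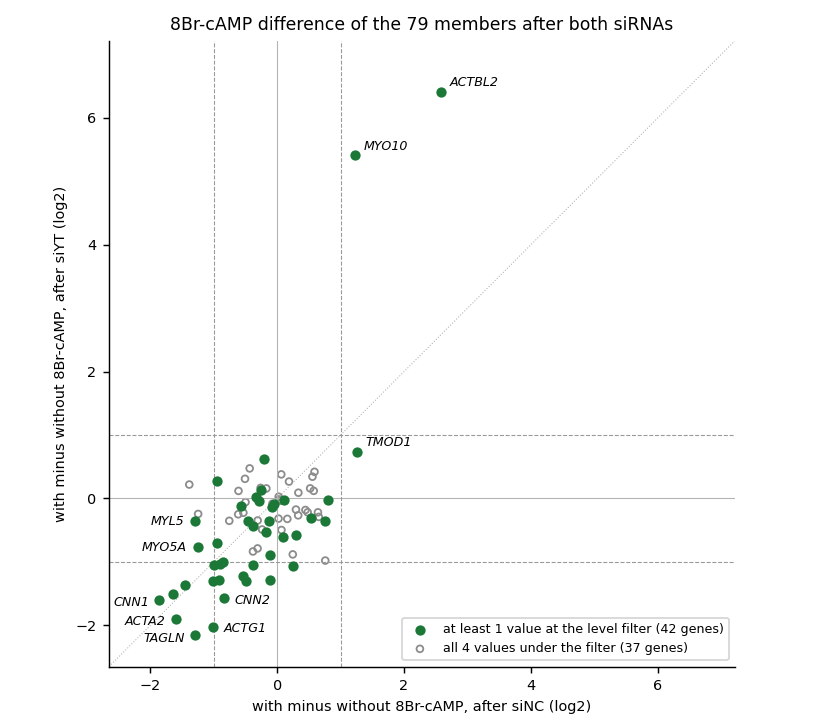
Difference with minus without 8Br-cAMP on the log2 scale, after siNC (horizontal axis) and after siYT (vertical axis), for the 79 members; filled points have at least 1 value at the level filter and open points none. Dashed lines mark differences of 1, the dotted line equal differences, and ACTBL2 (6.41 after siYT and 2.57 after siNC) and MYO10 (5.40 after siYT and 1.23 after siNC) stand far above the rest while ACTA2, CNN1, TAGLN and ACTG1 lie lowest.

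Among the cytoplasmic actins, which build the filaments of non-muscle cells, ACTB (beta-actin) was at 10.85 with and 12.36 without 8Br-cAMP after siYT, and at 11.45 with and 13.09 without it after siNC. Both arrays with 8Br-cAMP lay under both arrays without it, and the differences were -1.51 after siYT and -1.64 after siNC, or 2.85-fold and 3.12-fold lower. ACTG1 (gamma-actin) was at 14.49 with and 16.51 without 8Br-cAMP after siYT, and at 16.0001 with and 17.01 without it after siNC. Its differences were -2.02 and -1.01, and it was the one member with a value above 16. ACTG1 is also among the members with a CArG box in the window, as printed above.

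ACTA2, the smooth muscle alpha-actin that stress fibres of contractile cells take up, was at 9.14 with and 11.04 without 8Br-cAMP after siYT, and at 9.49 with and 11.08 without it after siNC. The arrays with 8Br-cAMP were 3.74-fold and 3.01-fold lower, while the siRNA differences were -0.36 with and -0.048 without 8Br-cAMP. The groups thus separated by medium and hardly by siRNA. ACTA1, the skeletal muscle alpha-actin, was not called for 8Br-cAMP, with differences of -0.61 after siYT and 0.10 after siNC.

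ACTN1, an alpha-actinin that cross-links stress fibres, was at 13.96 with and 15.01 without 8Br-cAMP after siYT, and at 14.70 with and 15.70 without it after siNC. Differences of -1.04 and -1.002 put it at the edge of the call, and with each array centred on its gene median the value after siYT was -0.99 and not called. Its relative ACTN4 was at 14.46 with and 13.83 without 8Br-cAMP after siYT, and 13.98 with and 14.19 without it after siNC, and was called in no comparison. ACTN2, the muscle form, lay between 8.72 and 8.98 on all 4 arrays and was not called either.

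Of the heavy chains of non-muscle myosin II, the main motor of cell contraction, MYH9 was called lower after both siRNAs, MYH10 after siYT alone, and MYH14 had no value at the filter. MYH9 was at 12.18 with and 13.55 without 8Br-cAMP after siYT, and at 12.17 with and 13.63 without it after siNC. It was 2.58-fold and 2.74-fold lower with 8Br-cAMP, and its siRNA differences were 0.005 with and -0.084 without it. MYH10 was at 5.32 with and 6.35 without 8Br-cAMP after siYT, and at 6.31 with and 7.22 without it after siNC. It was called lower after siYT (-1.03) and not after siNC (-0.91), and its values are near the filter, so the size depends on the background; the call after siYT ended after centring, quantile normalization, cyclic loess, a filter at the negative controls' 95th percentile (6.95) and log2 of the linear value plus 32.

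The light chains of the same motor showed smaller differences. MYL9, a regulatory light chain whose phosphorylation switches the motor on, was at 15.57 with and 15.93 without 8Br-cAMP after siYT and at 15.26 with and 15.72 without it after siNC. MYL12A, another regulatory chain, was at 14.03 with and 14.92 without 8Br-cAMP after siYT, and 14.91 with and 15.03 without it after siNC. MYL12B, its near copy, was at 15.48 with and 15.46 without 8Br-cAMP after siYT, and 15.66 with and 15.99 without it after siNC. The essential light chain MYL6 differed by -0.046 and -0.29. None of these 4 was called in any comparison. Of the 13 light chains the single call was MYL5, which was at 7.09 with and 7.45 without 8Br-cAMP after siYT, and 6.46 with and 7.74 without it after siNC. It was called lower after siNC (-1.29) and not called after siYT.

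Tropomyosins, which wind along the filament and set which motors may bind, were partly lower. TPM4 was at 12.66 with and 13.97 without 8Br-cAMP after siYT, and at 12.93 with and 13.95 without it after siNC, so the groups split by medium with differences of -1.31 and -1.02. TPM1 was at 13.29 with and 14.60 without 8Br-cAMP after siYT, and 14.31 with and 14.80 without it after siNC, called lower after siYT (-1.31) and not after siNC (-0.49). TPM2, a form abundant in muscle, was at 7.11 with and 6.98 without 8Br-cAMP after siYT, and 6.98 with and 7.24 without it after siNC, and was not called. TPM4 carries a CArG box in its window, as does ACTG1. Of the other members with a box, ACTC1, ACTG2 and MYL7 were under the filter on all arrays. MYO1E was called in no comparison, ACTA1 was not called for 8Br-cAMP, and CNN2 was called lower after siYT alone. Of the members lower after both siRNAs, CNN1 and MYH9 were searched and had no box, and ACTB and TAGLN had no window. Whether a box goes with the 8Br-cAMP difference was not tested.

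The calponin and transgelin families bind along actin filaments, and CNN1 and TAGLN are classical markers of smooth muscle contraction. TAGLN was at 5.62 with and 7.77 without 8Br-cAMP after siYT, and at 8.53 with and 9.82 without it after siNC. CNN1 was at 5.48 with and 7.08 without 8Br-cAMP after siYT, and at 7.70 with and 9.57 without it after siNC. In both genes siYT+8Br-cAMP was the lowest array, under the level filter, and siNC the highest, so the 8Br-cAMP difference after siYT depends on the background.

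Their relatives CNN2 and CNN3 were called lower after siYT (-1.57 and -1.22) and did not reach the size after siNC (-0.84 and -0.53). CNN2 was at 8.30 with and 9.88 without 8Br-cAMP after siYT, and 8.97 with and 9.81 without it after siNC. CNN3 was at 13.92 with and 15.14 without 8Br-cAMP after siYT, and 14.12 with and 14.65 without it after siNC. Caldesmon, CALD1, which inhibits the myosin motor on actin, was at 11.85 with and 12.38 without 8Br-cAMP after siYT, and 11.39 with and 11.57 without it after siNC, and was not called. Zyxin, ZYX, a sensor of stretched filaments, was at 9.33 with and 10.62 without 8Br-cAMP after siYT, and at 11.04 with and 11.96 without it after siNC. It was called lower after siYT (-1.29) and was near the size after siNC (-0.92), where quantile normalization (-1.02) and cyclic loess (-1.01) made it a call. Vinculin, VCL, the adhesion protein that links integrin complexes to actin, differed by -0.70 and -0.94 and was not called.

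Unconventional myosins carry membranes and cargo along actin, and their 8Br-cAMP differences were mixed. MYO5A, a transporter of vesicles, was at 8.84 with and 9.61 without 8Br-cAMP after siYT, and 7.98 with and 9.23 without it after siNC, and was called lower after siNC (-1.25) and not after siYT (-0.76). After siYT, MYO1C (-1.05) and MYO1D (-1.29), which tie membranes to actin, and MYO18A (-1.06) were called lower, while after siNC they differed by -0.39, -0.11 and 0.24. The MYO1C call ended after centring, just under the size, and that of MYO18A with log2 of the linear value plus 32 (-0.96).

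ACTBL2 and MYO10 went the other way by a wide margin. ACTBL2, an actin closely related to beta-actin, was at 10.90 with and 4.49 without 8Br-cAMP after siYT, and at 7.29 with and 4.72 without it after siNC. The difference of 6.41 after siYT was the third highest of all 17687 genes, and that of 2.57 after siNC ranked 89. Neither value without 8Br-cAMP reached the filter, and the folds of 85.1 and 5.95 therefore rest on the background. Both arrays with 8Br-cAMP lay above both without it, the reverse of ACTB, ACTG1 and ACTA2.

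MYO10, the motor that travels to the tips of filopodia, was at 13.05 with and 7.65 without 8Br-cAMP after siYT, and at 10.67 with and 9.44 without it after siNC. All 4 values were above the filter. The differences were 5.40, or 42.3-fold, after siYT and 1.23, or 2.34-fold, after siNC, and the first of them ranked 7 among all genes. TMOD1 was the third member called higher after siNC (1.25), and it differed by 0.74 after siYT.

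**Figure D3:**
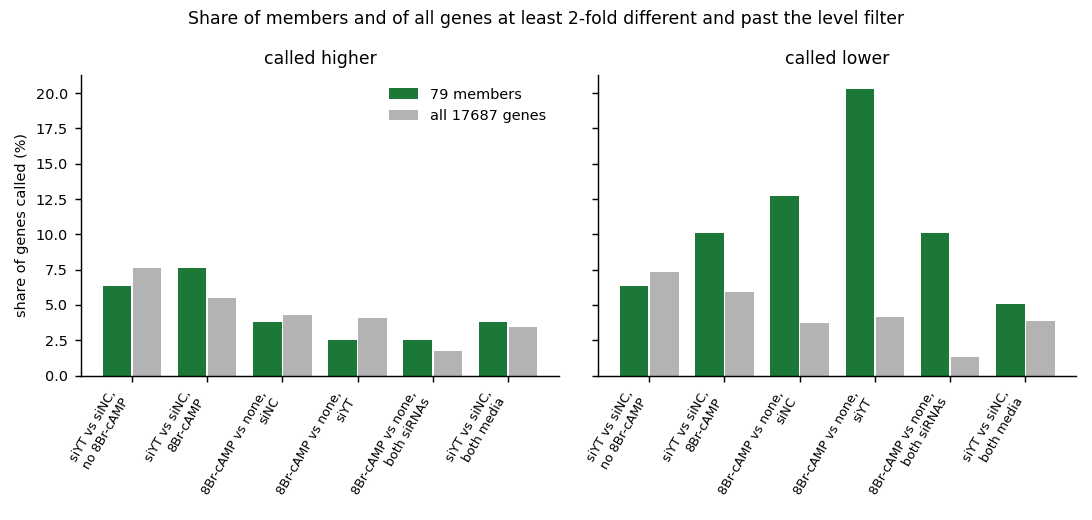
Share of the 79 members (green) and of all 17687 genes (grey) that were called higher (left) and lower (right), in percent, for 4 single comparisons and for calls in both siRNA backgrounds or both media. The widest gaps are in the genes lower with 8Br-cAMP after siYT (20.3% against 4.15%) and after siNC (12.7% against 3.74%).

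The siRNA comparison asked which members differed after siRNA against YAP and TAZ in each medium. A few members differed strongly: the filament cap TMOD1 and the membrane motor MYO1D were far higher after siYT, and CNN1, TAGLN and ZYX were lower, whether or not 8Br-cAMP was present. The share of members called was under that of all genes without 8Br-cAMP and above it with 8Br-cAMP. Without 8Br-cAMP, 5 members were called higher (6.33%, against 7.6% of all genes) and 5 lower (6.33%, against 7.32%). With it, 6 were called higher (7.59%, against 5.52%) and 8 lower (10.1%, against 5.94%).

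In both media, 3 members were called higher (3.80%, against 3.44% of all genes), namely TMOD1, TMOD2 and MYO1D. The 4 called lower in both media (5.06%, against 3.89%) were CNN1, TAGLN, ZYX and MYO19. Median siRNA differences over the 79 members were -0.09 with and 0.02 without 8Br-cAMP, against 0.06 and 0.02 over all genes. The siRNA and 8Br-cAMP comparisons share arrays, so their values for 1 gene are not independent of each other.

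**Figure D4:**
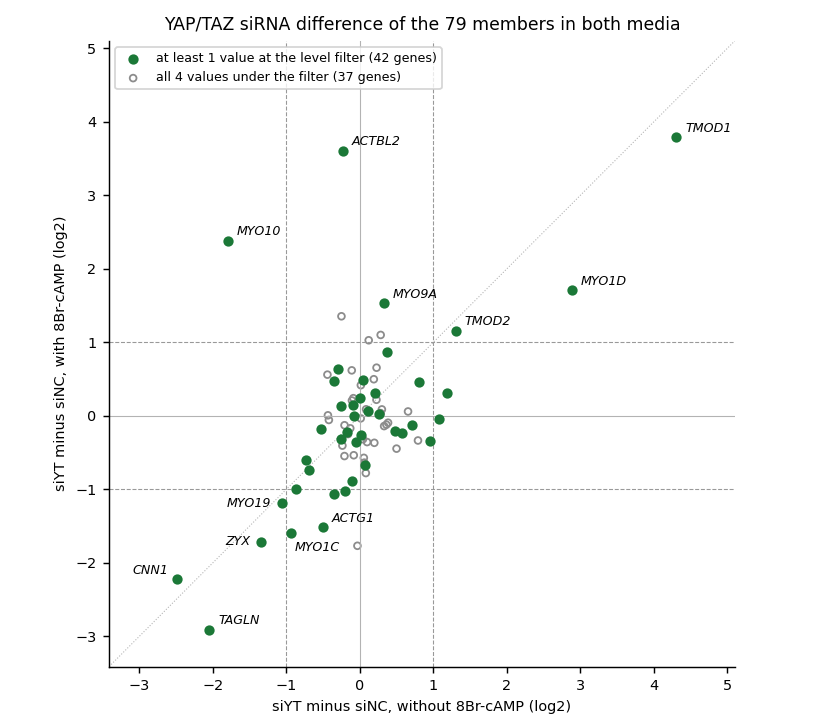
Difference siYT minus siNC on the log2 scale without (horizontal axis) and with 8Br-cAMP (vertical axis) for the 79 members; filled points have at least 1 value at the level filter and open points none. Dashed lines mark differences of 1 and the dotted line equal differences; TMOD1, MYO1D and TMOD2 lie at the upper right, CNN1, TAGLN, ZYX and MYO19 at the lower left, and MYO10 and ACTBL2 far above the dotted line.

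Tropomodulins cap the slow-growing filament end and hold tropomyosin there. TMOD1, the form best known from red cells and striated muscle, was at 11.86 in siYT and 7.56 in siNC without 8Br-cAMP, and at 12.60 in siYT and 8.81 in siNC with it. Both siYT arrays lay above both siNC arrays, 19.8-fold higher without and 13.9-fold higher with 8Br-cAMP, with differences of 4.31 and 3.79. Among all genes these differences ranked 17 and 13 from the highest, and all 4 levels were above the filter.

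TMOD2, known as the neuronal form, was at 7.90 in siYT and 6.59 in siNC without 8Br-cAMP, and at 6.90 in siYT and 5.74 in siNC with it. Its differences of 1.31 and 1.16 start near the filter, and with log2 of the linear value plus 32, or with the filter of 6.95, the difference with 8Br-cAMP (0.83 and 1.16) was not called. TMOD3, the widely expressed form, stayed between 11.91 and 12.11 on the 4 arrays. The tropomyosins did not follow TMOD1: TPM4 differed by 0.023 without and -0.27 with 8Br-cAMP, TPM2 by -0.26 and 0.13, and TPM1 by -0.20 and -1.02, the last a call at the edge that centring ended.

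CNN1, calponin 1, was at 7.08 in siYT and 9.57 in siNC without 8Br-cAMP, and at 5.48 in siYT and 7.70 in siNC with it. The siYT array was lower in each medium, by 5.58-fold without and 4.65-fold with 8Br-cAMP, with differences of -2.48 and -2.22. TAGLN, also called SM22, was at 7.77 in siYT and 9.82 in siNC without 8Br-cAMP, and at 5.62 in siYT and 8.53 in siNC with it. Its differences were -2.05 and -2.91, or 4.15-fold and 7.52-fold lower. The siYT value with 8Br-cAMP was under the filter for both CNN1 and TAGLN, so their folds with 8Br-cAMP depend on the background. These 2 members were the ones called lower both by the siRNA in both media and by 8Br-cAMP after both siRNAs.

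Other members of the same families did not share that call. TAGLN2, the widely expressed transgelin, was at 15.67 in siYT and 14.60 in siNC without 8Br-cAMP, and at 15.31 in siYT and 15.35 in siNC with it. It was called higher without 8Br-cAMP (1.07) and differed by -0.041 with it. CNN2 differed by 0.065 and -0.67, CNN3 by 0.48 and -0.20, and CALD1 by 0.81 and 0.46, none of them called. The call of TAGLN2 ended after quantile normalization (0.99) and cyclic loess (0.98).

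Zyxin marks adhesion sites under tension, and ZYX was at 10.62 in siYT and 11.96 in siNC without 8Br-cAMP, and at 9.33 in siYT and 11.04 in siNC with it. The siYT array was lower in each medium, with differences of -1.34 and -1.71. Vinculin did not share this, with VCL at 12.82 in siYT and 12.91 in siNC without 8Br-cAMP and at 12.12 in siYT and 11.97 in siNC with it. PALLD, a scaffold that gathers alpha-actinin, was at 14.24 in siYT and 13.06 in siNC without 8Br-cAMP, and at 13.66 in siYT and 13.35 in siNC with it, and was called higher without 8Br-cAMP (1.18) and not with it (0.31).

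Actins and actinins were mostly under the size for the siRNA. ACTB differed by -0.73 without and -0.60 with 8Br-cAMP, and ACTN1 by -0.70 and -0.74, both lower in siYT in each medium and not called. ACTG1 was called lower with 8Br-cAMP (-1.51) and differed by -0.50 without it. ACTA1 was called lower with 8Br-cAMP (-1.06), and its levels were 7.01 in siYT and 8.07 in siNC with 8Br-cAMP, and 7.61 in siYT and 7.97 in siNC without it. The ACTA1 call ended just under the size after quantile normalization and at -0.90 with log2 of the linear value plus 32. MYH10 was lower in siYT in both media and not called, with differences of -0.87 and -0.99. Cyclic loess made the second of them a call (-1.01).

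Among unconventional myosins, MYO1D was at 8.49 in siYT and 5.61 in siNC without 8Br-cAMP, and at 7.21 in siYT and 5.50 in siNC with it. MYO1D is a class I motor whose fly homologue sets left-right asymmetry of organs. Both siYT arrays lay above both siNC arrays, with differences of 2.89 and 1.71, and both siNC values were under the filter, so the folds of 7.39 and 3.27 rest on the background. Its class I relative MYO1C, a motor that tethers membranes, was in contrast at 11.31 in siYT and 12.24 in siNC without 8Br-cAMP, and at 10.26 in siYT and 11.86 in siNC with it. MYO1C was called lower with 8Br-cAMP (-1.60) and was short of the size without it (-0.93), and MYO1E differed by -0.26 and -0.32.

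MYO19, the motor that sits on mitochondria and helps share them out at cell division, was at 6.43 in siYT and 7.49 in siNC without 8Br-cAMP, and at 6.41 in siYT and 7.60 in siNC with it. It separated by siRNA and hardly by medium, with differences of -1.06 and -1.19, and its siYT values sit near the filter. With log2 of the linear value plus 32 these became -0.84 and -0.95 and were not called. MYO9A, a class IX motor, was called higher with 8Br-cAMP (1.53) and differed by 0.32 without it. MYO5A, MYO5B, MYO6, MYO9B and MYO18A were not called for the siRNA in either medium.

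The last comparison asked whether the siRNA difference itself depended on 8Br-cAMP, by subtracting the siRNA difference without 8Br-cAMP from the one with it. The same value results from taking the 8Br-cAMP difference in siYT cells and subtracting the one in siNC cells. It was called higher for 3 members (3.80%, against 3.57% of all genes) and lower for 4 (5.06%, against 4.82%), so the count was near the background, and the median was -0.15 over the members and 0.01 over all genes. With 1 array per group the difference of differences was not tested.

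MYO10 had the second highest value of all 17687 genes, 4.18, and ACTBL2 the fifth highest, 3.84. For MYO10 the siRNA difference without 8Br-cAMP was -1.79, with 7.65 in siYT and 9.44 in siNC. With 8Br-cAMP it was 2.38, with 13.05 in siYT and 10.67 in siNC, so both calls were made and in opposite directions. ACTBL2 differed by -0.23 without 8Br-cAMP, where both values were under the filter, and by 3.61 with it. The siYT+8Br-cAMP array was the highest of the 4 for both genes.

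The third call on the high side was MYO9A (1.21), at 8.63 in siYT and 7.10 in siNC with 8Br-cAMP, and at 8.36 in siYT and 8.04 in siNC without it. The 4 calls on the low side were MYO18A (-1.31), MYO1D (-1.18), TAGLN2 (-1.11) and ACTG1 (-1.01). MYO18A was at 8.78 in siYT and 7.82 in siNC without 8Br-cAMP and at 7.72 in siYT and 8.06 in siNC with it. The call of ACTG1 was at the edge and ended after centring (-0.92) and cyclic loess (-0.98).

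**Figure D5:**
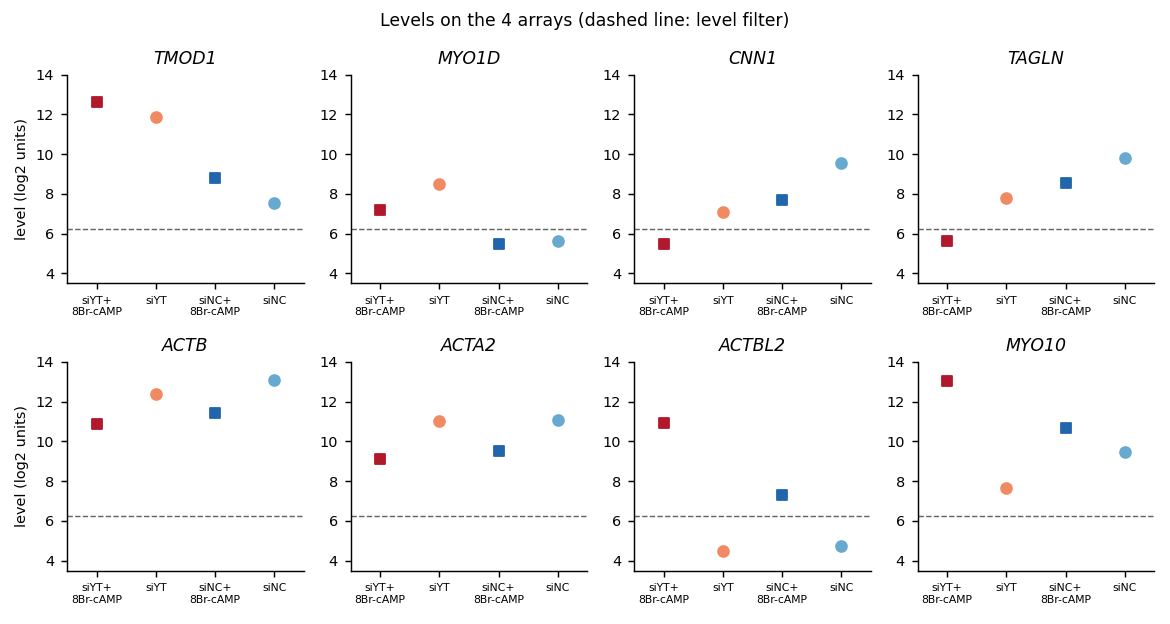
Deposited log2 level (vertical axis) of 8 members on the 4 arrays (horizontal axis), with the level filter of 6.22 as a dashed line. TMOD1 and MYO1D separate by siRNA, ACTB and ACTA2 by medium, CNN1 and TAGLN are lowest in siYT+8Br-cAMP and highest in siNC, and ACTBL2 and MYO10 are highest in siYT+8Br-cAMP.

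Proteins that build, cut and regulate filaments were taken from 10 further lists of 225 measured genes that are not members. With 8Br-cAMP, 12.9% were called lower after siYT (against 4.15% of all genes) and 9.33% after siNC (against 3.74%), while 2.67% were called higher after siYT (against 4.06%) and 3.11% after siNC (against 4.32%). After both siRNAs, 11 (4.89%, against 1.31%) were lower and 5 (2.22%, against 1.74%) higher. For the siRNA in both media, 6 (2.67%, against 3.44%) were higher and 9 (4.0%, against 3.89%) lower. The counts of single lists that follow are small, and the all-gene shares stand beside the counts or are those just given.

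SRF itself was at 7.28 in siYT and 7.38 in siNC with 8Br-cAMP and at 7.90 in siYT and 7.49 in siNC without it, and was called in no comparison. Of 21 genes listed with SRF, 3 were lower with 8Br-cAMP after both siRNAs (against 1.31% of all genes) and 0 higher (against 1.74%): the ETS factor ELK3 (-1.18 and -2.02), the LIM protein FHL3 (-1.07 and -1.07), and CCN1 (-2.04 and -1.19). For the siRNA, 1 of the 21 was lower in both media (against 3.89% of all genes), the secreted protein CCN1 (-4.57 without and -5.42 with 8Br-cAMP).

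Of 16 measured regulators of the myosin light chain, 2 were lower with 8Br-cAMP after both siRNAs, against 1.31% of all genes. PPP1R14B, an inhibitor of the phosphatase that switches the motor off, differed by -2.10 after siYT and -2.55 after siNC. DAPK1, a kinase that can phosphorylate the light chain, differed by -1.21 and -1.16 and was the one gene of the list lower after siYT in both media (-1.18 and -1.23). MYLK, the myosin light chain kinase, was at 12.27 in siYT and 10.76 in siNC without 8Br-cAMP, and at 9.71 in siYT and 9.80 in siNC with it.

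Of 25 genes of the Arp2/3 complex and its activators, 2 were called lower with 8Br-cAMP after siYT (against 4.15% of all genes) and 3 after siNC (against 3.74%). The coronins CORO1C (-1.36 and -1.66) and CORO2B (-1.40 and -1.16) were lower with 8Br-cAMP after both siRNAs. Their relative CORO1B was not called for 8Br-cAMP (-0.78 after siYT and 0.44 after siNC), and CORO2A was under the filter on all arrays. For the siRNA in both media, 0 of the 25 were called. Of 23 linear nucleators, 3 were called lower with 8Br-cAMP after siYT and 3 after siNC, and VASP, which lengthens filaments, was lower with 8Br-cAMP after both siRNAs (-1.69 and -1.37). The formin DIAPH3 was the gene of this list lower after siYT in both media (-3.94 and -3.73). Of 24 monomer-binding, severing and capping proteins, 4 were called higher after siYT without 8Br-cAMP (against 7.6% of all genes) and 0 lower (against 7.32%). With 8Br-cAMP, 1 was called higher (against 5.52%) and 2 lower (against 5.94%), PFN1 (-1.28) and CFL2 (-1.03). PFN2, a profilin, was higher after siYT in both media (1.64 and 2.01), and SVIL was lower with 8Br-cAMP after both siRNAs (-2.41 and -1.43).

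Among 30 other cross-linkers, 2 were higher after siYT in both media (against 3.44% of all genes), SYNPO2 (3.12 and 2.05) and PDLIM3 (2.26 and 1.18), and 2 lower (against 3.89%), ANLN (-3.59 and -5.34) and MYPN (-1.84 and -1.73). SYNPO2 and PDLIM3 bind actinin in muscle Z-discs, and ANLN, anillin, works in the contractile ring of dividing cells. MARCKSL1 (1.56 and 2.32) and MYPN (1.45 and 1.34) were higher with 8Br-cAMP after both siRNAs. MYPN, myopalladin, had 1 value at the filter, 7.51 in siNC+8Br-cAMP, and passed through that array alone. Its siRNA difference without 8Br-cAMP and its 8Br-cAMP difference after siYT lie between values under the filter and were not calls of their own.

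Of 30 genes listed as focal adhesion adaptors, 3 were lower after siYT in both media (against 3.89% of all genes) and 1 higher (against 3.44%). The lower ones were AJUBA (-2.16 and -2.99), a LIM protein of the zyxin family, FERMT1 (-1.93 and -1.73), an activator of integrins, and LPXN (-1.34 and -1.38), and the higher one was VASN (1.36 and 1.64). VASN encodes vasorin, a membrane protein that is not an adaptor and stood in the list in error, so 0 adaptors were higher in both media. With 8Br-cAMP, PXN, the scaffold paxillin, was lower after both siRNAs (-1.40 and -1.74), and LIMS1 was higher (1.03 and 1.48). FERMT1 was at 4.69 with and 5.91 without 8Br-cAMP after siYT, both under the filter, and at 6.42 with and 7.84 without it after siNC, so it counted as lower after both siRNAs through the siNC arrays alone. Of 11 measured ezrin-family genes, the membrane linker RDX was higher after siYT in both media (1.06 and 1.501) and the adaptor NHERF2 lower (-2.43 and -1.26). Of 20 measured partners of striated filaments, 16 stayed under the filter, 0 were called for the siRNA in both media and 0 for 8Br-cAMP after both siRNAs.

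Some markers of other cell types and of granulosa cells differed along with the groups. None of the 4 endothelium markers or the 16 striated muscle markers was called in any comparison. Of 7 measured theca and fibroblast markers, 4 were called higher in siYT without 8Br-cAMP (against 7.6% of all genes). With 8Br-cAMP, 2 were (against 5.52%), and 0 were lower in either medium. The median siRNA difference of the 7 was 1.34 without and 0.22 with 8Br-cAMP. LUM and DCN, higher in both media, were under the filter in both siNC arrays, so their differences depend on the background. With 8Br-cAMP, 2 of the 7 were called lower after siYT, PDGFRA (-2.59) and COL1A1 (-1.47), with a median difference of -0.53, and 0 after siNC. The defining theca genes CYP17A1 and INSL3 were under the filter on all 4 arrays. Of 5 leukocyte markers, CD68 was called higher in siYT in both media (1.92 and 2.82) and the other 4 were under the filter on all arrays. Of 13 granulosa markers, 2 were higher in siYT in both media, among them CYP19A1 (9.23 and 3.29), and 1 lower, KRT18 (-4.02 and -4.71). The part of these markers in the siRNA and 8Br-cAMP differences of the members was not tested.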

How the data were processed

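RNA of 4 KGN cultures was hybridised to Clariom S Human arrays, 1 per group. The deposited values are log2 RMA values that the authors computed with the Expression Console of Affymetrix, per the labels. Its version and the annotation build: not given in the sources used here. Of 24351 probe sets, 17709 named 1 gene and gave 17687 genes, and probe sets of 20 genes with several were averaged. Differences of log2 values were computed with pandas 2.3.3, with a size of 1 and the level filter of 6.22 as the call. Shares of called genes were taken over all 17687 genes. The 612 negative control probe sets had a 95th percentile of 6.95. Alternatives were other filters, sizes and scalings (limma 3.58.1 in R 4.3.3 for cyclic loess and quantile normalization), log2 of the linear value plus 32, and the highest probe set per gene. The calling step was tested on simulated data. Arrays give no depth; the small number of arrays limits precision. Members, lists, comparisons and alternatives were chosen with earlier results of these data known.

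Values on all 4 arrays are given for members called in any of the 5 comparisons and for a set of stress fibre genes. From each further list the genes called by the siRNA in both media are named, at most 4, with at most 2 others; these others, and also FHL3 in the SRF list, were chosen after their values were seen. TPM3 was not analysed here, and the genes of 1 further list are not reported here.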

Additional observations from a re-analysis of the deposited data

Results flagged for a closer look

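MYO10 was the member whose siRNA difference was called in opposite directions in the 2 media. It was 2.38 with 8Br-cAMP, at 13.05 in siYT and 10.67 in siNC, and -1.79 without it, at 7.65 in siYT and 9.44 in siNC. The difference of differences was 4.18, and with 1 array per group it was not tested.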

How the results depend on the processing

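No paired analysis was possible because each group had 1 array. Of the counts of members called, those of the siRNA without 8Br-cAMP, of 8Br-cAMP after siYT and after siNC, of the difference of differences, of the siRNA in both media and of 8Br-cAMP after both siRNAs were 10, 18, 13, 7, 7 and 10. With a size of 1.5-fold the first was 17, and 8Br-cAMP after siNC gave 21, the difference of differences 19, the siRNA in both media 11 and 8Br-cAMP after both siRNAs 17. With a size of 1.5 on the log2 scale they were 5 without 8Br-cAMP for the siRNA, 8 and 4 for 8Br-cAMP after siYT and after siNC, 2 for the difference of differences, 4 for the siRNA in both media and 4 for 8Br-cAMP after both siRNAs. Without the level filter the difference of differences gave 11. With log2 of the linear value plus 32, the member medians for 8Br-cAMP were -0.096 after siYT and -0.095 after siNC, against -0.009 and -0.014 over all genes. The 14 calls of the siRNA with 8Br-cAMP lay between 10 and 21 under all 9 alternatives. Apart from the count without the filter, no all-gene count stands beside these alternative counts, so they are not read against the background. No called difference of a named member changed sign under any alternative. Centring ended 5 calls of single members and added 1, quantile normalization ended 3 and added 1, cyclic loess ended 3 and added 2, log2 of the linear value plus 32 ended 6 and the filter of 6.95 ended 2. The cause was not tested where it is not the setting's own construction. Values near the background limit the sizes of ACTBL2, MYO1D, CNN1 and TAGLN.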
